A study of Arabidopsis thaliana with 4 samples.

Results

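The Casparian strip genes examined here are 6 Arabidopsis thaliana genes of the root endodermis: CASP1 (AT2G36100), CASP2 (AT3G11550), CASP4 (AT5G06200), CASP5 (AT5G15290), ESB1 (AT2G28670) and MYB36 (AT5G57620). They were taken by locus from the gene spots of 4 two-colour Agilent arrays, where they are read by 7 of 43603 probes, 1 probe each and 2 for MYB36, and stand for 6 of 29030 loci. CASP1 and ESB1 lie on chromosome 2, CASP2 on chromosome 3, and CASP4, CASP5 and MYB36 on chromosome 5. The exposed group consisted of plants of the wild-type ecotype Col-0 that shared the air of an upright plate with the leaf pathogen Pseudomonas syringae DC3000, with plants above and bacteria below. The control group consisted of Col-0 plants on plates without bacteria. Plants were grown for 8 days and exposed for 12 hours according to the series text, whereas each sample is labelled 12 days. Each array held exposed RNA in the red dye Cy5 and control RNA in the green dye Cy3, with no dye swap, so a dye preference of a probe and an effect of exposure cannot be told apart. The labels name neither the organ taken nor separate batches of plants, so the p-values measure the spread between 4 arrays, which may be technical.

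The Casparian strip is a band of lignin laid into the walls between endodermal cells, and it stops water and solutes from passing through the wall space between soil and vascular tissue. CASP proteins are membrane proteins that gather in a belt at the future strip and hold the wall-building enzymes there. ESB1 carries a dirigent domain and is needed for the lignin to be laid down as a continuous band. MYB36 is the transcription factor that switches on CASP and ESB1 genes as endodermal cells mature. Because these genes are active in 1 cell layer of the root, a bulk sample cannot tell fewer endodermal cells from less RNA per cell.

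None of the 6 genes passed the test for a difference between exposed and control plants, at an adjusted p below 0.05 in limma over 22690 tested genes. CASP2 had the highest fitted value, 1.27-fold (log2 ratio of exposed over control 0.34 ± 0.088 SE, n = 4), followed by CASP4 at 1.24-fold and CASP1 at 1.21-fold. ESB1 was at 1.12-fold, MYB36 at 1.00-fold and CASP5 at 0.962-fold. The count of 0 of 6 stands beside 3.40% of all tested genes called in either direction and 1.58% called higher. At an unadjusted p below 0.05 there were 3 of the 6, CASP1, CASP2 and ESB1, beside 24.8% of all tested genes. The median log2 ratio of the 6 genes was 0.22, and that of all tested genes was -0.0046.

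All 6 genes had a log2 ratio that could be measured in both channels of every array, since each was well above background there. Array 4 stood apart from the others: its exposed channel had a median gene spot of 1286 scanner units, against 336 to 373 on arrays 1 to 3, and its control channel 575.5 units, against 292 to 362.5. Its log2 ratios correlated across genes, which are not independent replicates, with those of the other arrays at r = 0.220 to 0.288, where arrays 1 to 3 correlated with each other at r = 0.648 to 0.779. On 50 probes spotted 5 times each, the array means of arrays 1 to 3 varied with a median SD of 0.0469. The SD between replicate spots of the same array, divided by the square root of 5, gave 0.0491. These 3 arrays therefore differed by about the amount that noise between spots gives a mean of 5 spots. They may be 1 pair of RNA samples measured repeatedly, so values are also given with their mean as 1 sample. Arrays 1 and 2 shared slide 1 and arrays 3 and 4 shared slide 2.

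CASP1 had nearly the same ratio on all 4 arrays, including the array that stood apart. Its spot signal less local background was 7144, 6602, 7198 and 8930 scanner units in the exposed channels of arrays 1 to 4, against 4981, 4088, 5378 and 4908 units in the control channels. Every exposed channel lay above every control channel before dye normalization, which was also the case for CASP2, CASP4 and ESB1, 4 of the 6 genes, beside 14.1% of all tested genes. On array 4 the red channel was brighter throughout, with a median unnormalized log2 ratio over gene spots of 0.93, against -0.055 to 0.13 on arrays 1 to 3. After normalization the log2 ratios of CASP1 were 0.31, 0.30, 0.24 and 0.24 on arrays 1 to 4. They were above 0 on all 4 arrays. The fitted log2 ratio was 0.27 ± 0.059 SE (n = 4), with a 95% interval of 0.13 to 0.41 and an adjusted p of 0.0612 in limma, so CASP1 missed the threshold. The mean was 0.30 on slide 1 and 0.24 on slide 2.

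CASP2 had ratios well above 0 on arrays 1 to 3 and close to 0 on array 4. Its net signals were 2508, 2307, 2477 and 2916 units in the exposed channels, against 1645, 1432, 1621 and 1644 units in the control channels. The normalized log2 ratios were 0.45, 0.35, 0.50 and 0.063. Arrays 1 to 3 put CASP2 between the 96.5th and 98.4th percentile of all tested genes, and array 4 put it at the 65.3rd. The adjusted p was 0.0842 in limma, with a 95% interval of 1.09-fold to 1.46-fold.

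CASP4 and CASP5 were read by dim probes, and their ratios on array 4 had the opposite sign to those on arrays 1 to 3. CASP4 had net signals of 511, 489, 556 and 765 units in the exposed channels, against 320, 299, 352 and 362 units in the control channels. Its log2 ratios were 0.54, 0.39, 0.56 and -0.26, so that arrays 1 to 3 gave the highest value among the 6 genes on each array and array 4 the second lowest. The fit gave 0.31 ± 0.14 SE (n = 4) with an adjusted p of 0.238 in limma. CASP5 had net signals of 346, 277, 307 and 532 units in the exposed channels, against 289, 210, 276 and 326 units in the control channels, and these ranges overlap. Its log2 ratios were 0.18, 0.14, 0.13 and -0.68, and the fitted value of -0.056 ± 0.15 SE had an adjusted p of 0.845 in limma. The 95% interval of CASP5 ran from 0.747-fold to 1.24-fold and so covers changes in both directions.

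ESB1, the dirigent-domain gene, had a small and even ratio. Its net signals were 3817, 3660, 3579 and 4901 units in the exposed channels, against 2946, 2523, 2905 and 2827 units in the control channels. The log2 ratios were 0.20, 0.18, 0.17 and 0.12, above 0 on every array, with an SD of 0.0323 over the 4 arrays, the smallest among the 6 genes. The fitted value of 0.17 ± 0.058 SE (n = 4) had an adjusted p of 0.149 in limma and a 95% interval of 1.02-fold to 1.24-fold.

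MYB36, the regulator, showed no shift that exceeded the spread between arrays. The brighter of its probes had net signals of 652, 604, 625 and 1496 units in the exposed channels, against 639, 516, 536 and 763 units in the control channels. These ranges overlap, and only the exposed channel of array 4 stood above all others. The log2 ratios were -0.055, -0.043, 0.17 and -0.068, with array 3 alone above 0. The fitted log2 ratio was -7.5e-05 ± 0.069 SE (n = 4), with an adjusted p of 1.00 in limma and a 95% interval of 0.892-fold to 1.12-fold. A rise of the size fitted for CASP1 or CASP2 lies outside that interval. The interval takes the 4 arrays as independent, so it cannot exclude such a rise if arrays 1 to 3 repeat 1 RNA pair. The dimmer probe gave -0.0045, 0.037, 0.081 and -0.47 on arrays 1 to 4, with a fitted value of -0.089 ± 0.10 SE and an adjusted p of 0.625 over 31106 tested probes. Both probes placed MYB36 near 0 on arrays 1 and 2, and they differed by the most on array 4.

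**Figure D1:**
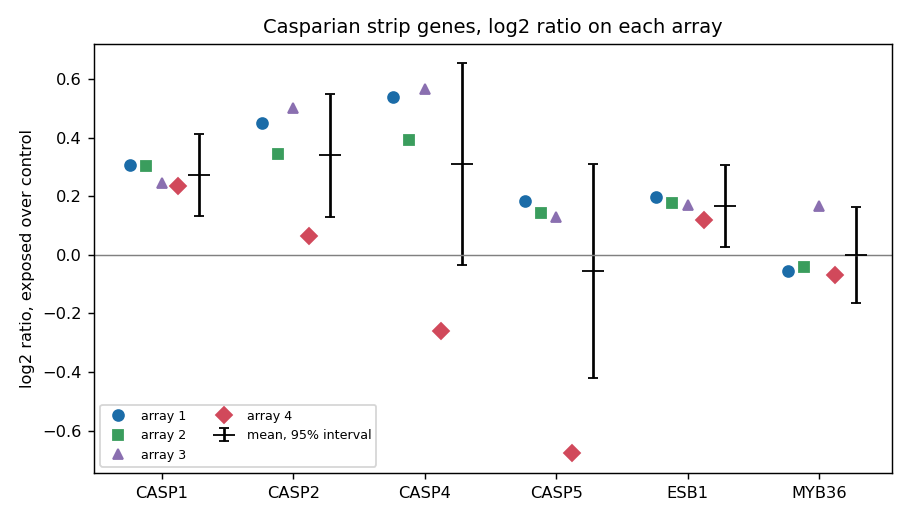
Log2 ratio of exposed over control (vertical axis) for the 6 Casparian strip genes, with 1 point for each of the 4 arrays and the limma mean with its 95% interval (n = 4). CASP1, CASP2 and ESB1 lie above 0 on every array, while CASP4 at -0.26 and CASP5 at -0.68 fall below 0 on array 4 alone.

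**Figure D2:**
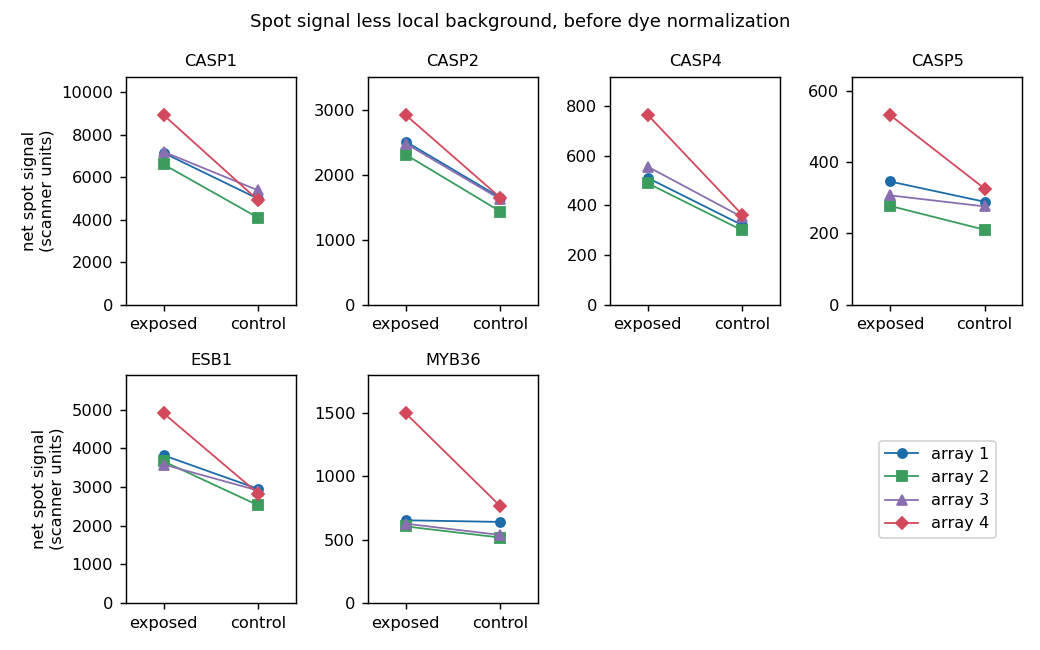
Spot signal less local background in scanner units, before dye normalization, in the exposed (left) and control (right) channel of each array, with a panel and an axis from 0 for each gene. The red channel of array 4 is the highest in every panel, for MYB36 at 1496 units against 763 units in its control channel.

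Across the genes, 3 of 6 had a ratio above 0 on all 4 arrays, beside 17.2% of all tested genes, and 5 of 6 had a ratio above 0 on each of arrays 1 to 3, beside 30.8%. The median of the 6 genes was 0.25, 0.24, 0.21 and -0.0027 on arrays 1 to 4, where the median of all tested genes was 0.0069, 0.0080, 0.0081 and -0.068. The 6 genes were spread with an SD of 0.161 to 0.212 on arrays 1 to 3 and of 0.331 on array 4. CASP4, CASP2 and CASP1 were the highest, in that order, on each of arrays 1 to 3, while on array 4 the order was CASP1, ESB1, CASP2. Among the 15 pairs of genes, the ratio of CASP1 was above that of MYB36 on 4 of 4 arrays, by 0.27 ± 0.13 on average (SD, n = 4). CASP2 exceeded MYB36 on 4 of 4 arrays by 0.34 ± 0.16, and ESB1 exceeded it by 0.17 ± 0.11, though by only 0.0051 on array 3. CASP4 exceeded MYB36 on 3 of 4 arrays, by 0.31 ± 0.35 on average, with -0.19 on array 4. In the fitted order, CASP1 was above its neighbour ESB1 on 4 of 4 arrays, by 0.11 ± 0.023 (SD, n = 4). That gap exceeds the spread between arrays, which may be technical. It cannot be told apart from a dye preference of either probe. The neighbours CASP2 and CASP4 differed by 0.031 ± 0.20 (SD, n = 4), and CASP1 minus CASP4 was -0.037 ± 0.37, so the order of these 3 genes is within the spread. CASP5 minus MYB36, at -0.055 ± 0.39, is within it too. With 4 arrays an exact two-sided sign-flip test cannot give a p below 0.125, so it cannot call any pair.

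The calls changed with array 4. Without array 4, 4 of the 6 genes were called higher, beside 16.8% of all tested genes: CASP4 (log2 ratio 0.50, adjusted p = 1.6e-05 in limma), CASP2 (0.43, 5.6e-05), CASP1 (0.28, 0.0015) and ESB1 (0.18, 0.0242). CASP5 (0.15, 0.0544) missed the threshold there, and MYB36 was at 0.023 (adjusted p = 0.812). The difference between array 4 and the mean of the other arrays was largest for CASP5, at -0.83, and CASP4, at -0.76. It was -0.37 for CASP2 and between -0.091 and -0.049 for the remaining genes. Over all tested genes this difference had an SD of 0.488 in the second intensity quartile, which holds CASP4, CASP5 and MYB36, and of 0.304 in the third, which holds CASP2. In the brightest quartile, which holds CASP1 and ESB1, the SD was 0.164. The median of the difference was -0.27 in the second quartile, -0.12 in the third and -0.038 in the brightest. In the dimmest quartile the median was 0.042 and the SD 0.494. MYB36, in the second quartile with CASP4 and CASP5, differed by -0.091. Whether signal strength accounts for the array 4 values was not tested. By slide, the mean ratios were 0.40 on slide 1 and 0.28 on slide 2 for CASP2, 0.47 and 0.15 for CASP4, and 0.19 and 0.15 for ESB1. CASP5 was at 0.16 on slide 1 and -0.27 on slide 2, and MYB36 at -0.049 on slide 1 and 0.049 on slide 2. The test of the difference between slides called 0 of all 22690 tested genes, and the 6 genes had adjusted p between 0.708 and 0.891 in limma.

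**Figure D3:**
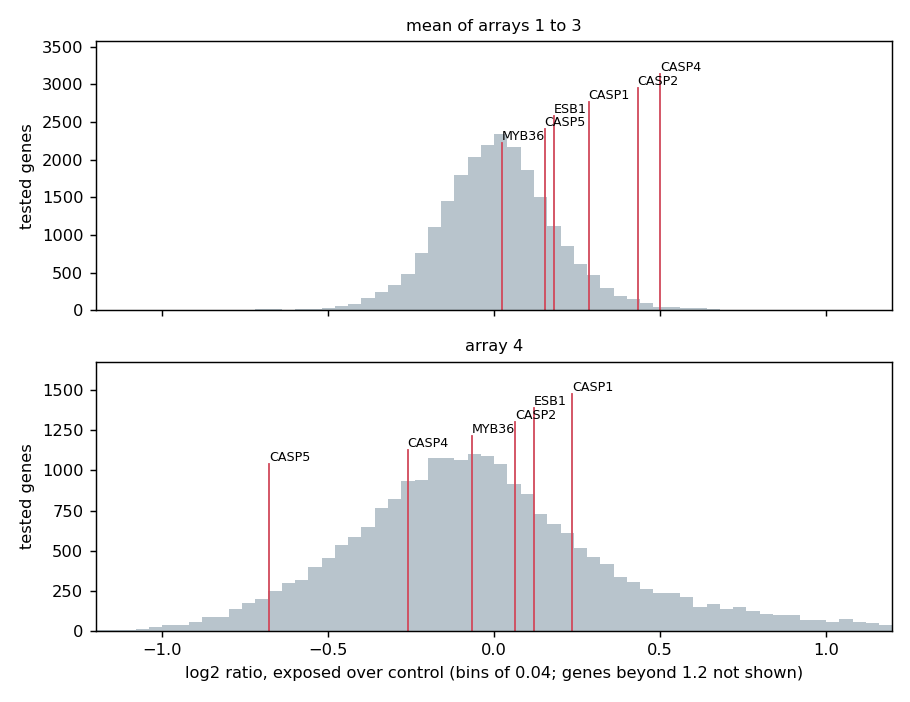
Number of tested genes by log2 ratio of exposed over control (horizontal axis), for the mean of arrays 1 to 3 (upper panel) and for array 4 (lower panel), with a red line at each of the 6 genes. CASP4 at 0.50 and CASP2 at 0.43 lie in the upper tail on arrays 1 to 3, while on array 4 CASP5 lies at -0.68 and the other genes between -0.26 and 0.24.

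Other treatments of the arrays gave between 0 and 5 calls among the 6 genes. With limma array weights, which gave array 4 a weight of 0.161 against 0.922 to 2.83 for the others, 4 genes were called higher, beside 18.9% of all tested genes. Within slide 1 alone (arrays 1 and 2) 5 genes were called higher, beside 19.0%, and only MYB36 was not. By the scanner software's own log ratio CASP1 alone was called (log2 ratio 0.33, adjusted p = 0.0416), beside 2.56%. Within slide 2 alone 0 genes were called among the 6, with a lowest adjusted p of 0.562 in limma, and 1999 of all tested genes had an unadjusted p below 0.05 there. With arrays 1 to 3 averaged to 1 sample beside array 4, CASP1 was at 0.26, CASP2 at 0.25, ESB1 at 0.15, CASP4 at 0.12, MYB36 at -0.023 and CASP5 at -0.26. No gene of all those tested was called in that fit, 1313 had an unadjusted p below 0.05, and the lowest adjusted p among the 6 genes was 0.633.

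Of 24 listed partners that build the strip or signal around it, all tested, 1 was called higher, beside 1.58% of all tested genes. None was called lower and 23 were not called, with a median log2 ratio of 0.026 over the list. The called gene was AT2G39430, for which the gene table lists no symbol (1.34-fold, log2 ratio 0.42 ± 0.076 SE, n = 4, adjusted p = 0.0431 in limma). Its ratios were 0.42, 0.45, 0.59 and 0.23 on arrays 1 to 4, above 0 on each. The partners that follow were picked after the values were seen, for their roles or for a low p. The laccase gene LAC13 was at 0.27 (adjusted p = 0.0753). PER64, a peroxidase of the strip, had ratios of 0.54, 0.51, 0.13 and 0.26 (fitted 0.36, adjusted p = 0.0766). UCC1, a copper protein of the strip region, was at 0.057 (adjusted p = 0.654). The NADPH oxidase gene RBOHF, which supplies the oxidant for lignin formation, was at -0.23 (adjusted p = 0.279). The receptor kinase gene GSO1, which monitors whether the strip is sealed, was at -0.036 (adjusted p = 0.859), and TPST, which sulfates peptide signals, was at -0.32 (adjusted p = 0.179). Array 4 gave RBOHF, GSO1 and TPST their lowest ratios, at -0.68, -0.43 and -0.78. The fit without array 4 put them at -0.079, 0.095 and -0.16. Without array 4, 8 of the 24 were called higher and 1 lower, beside 16.8% and 14.3% of all tested genes.

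Among 34 CASP-like genes in the gene table, which belong to the same protein family, 33 were tested. Of these, 2 were called higher, beside 1.58% of all tested genes, none lower and 31 were not called. The called genes were AT4G20390 (CASPL1B2), at 1.37-fold (log2 ratio 0.46 ± 0.065 SE, n = 4, adjusted p = 0.0301 in limma), and AT2G38480 (CASPL4B1), at 1.35-fold (log2 ratio 0.43 ± 0.071 SE, n = 4, adjusted p = 0.0380 in limma). A second, dimmer probe of CASPL1B2 gave a log2 ratio of -0.069. The family median was 0.12, with 27 of 33 genes above 0, beside 49.0% of all tested genes, and its array medians were 0.15, 0.18, 0.15 and -0.029. Array 4 gave the lowest median, as it also did for the 6 genes and for all tested genes (-0.068). The same held for the partner, endodermal identity, suberin, monolignol, root hair and stele lists, but not for the root tip, whole-root and shoot lists. Without array 4, 16 of the 33 were called higher and 2 lower, beside 16.8% and 14.3% of all tested genes.

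Regulators of endodermal identity had 0 of 8 genes called, with a median of 0.0049. SCL23, a relative of SCARECROW, was at -0.29 (adjusted p = 0.0690, with a second probe at 0.049), the zinc-finger gene JKD at -0.37 (0.0922) and SCL3 at 0.16 (0.201). Suberin genes, which make the later waxy coat of the endodermis, had 0 of 16 called and a median of -0.017. CYP86A1, which hydroxylates suberin fatty acids, was at 0.25 (0.0907), the elongase gene KCS20 at 0.15 (0.210, with other probes between -0.086 and 0.14) and the transcription factor gene MYB92 at -0.34 (0.231). Genes of monolignol synthesis, which supply lignin units, had 0 of 14 called and a median of 0.030. FAH1 was at -0.22 (adjusted p = 0.0930), HCT at -0.24 (0.0995, with other probes between -0.37 and -0.074) and PAL4 at 0.15 (0.223). When array 4 was left out, 0 of the 8 identity genes were called higher and 2 lower (SCL23 and JKD). The suberin list then had 3 called higher and 0 lower, and the monolignol list 2 and 2. Over all tested genes these shares were 16.8% and 14.3%.

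**Figure D4:**
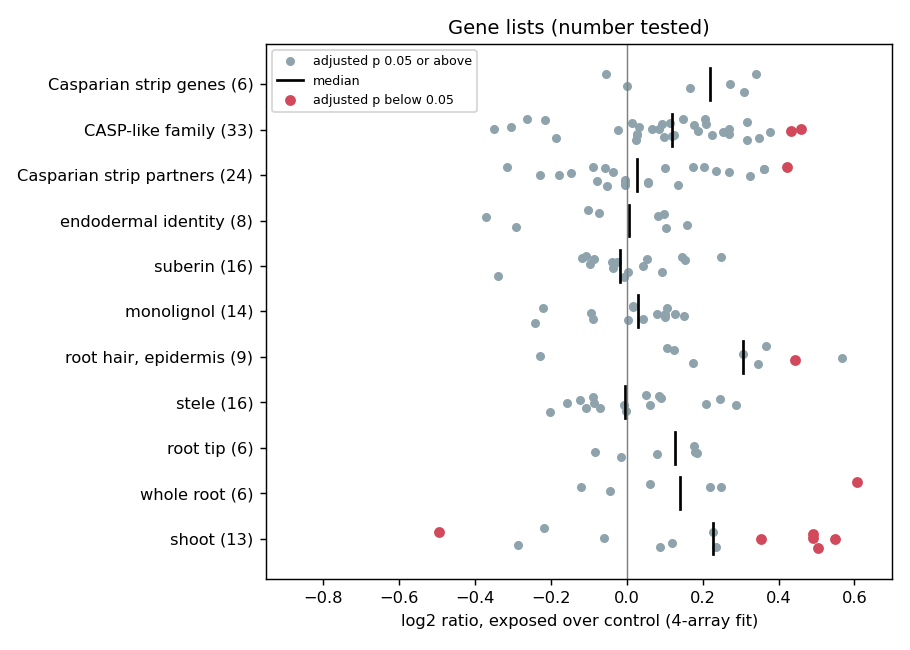
Fitted log2 ratio of exposed over control for each tested gene (points, horizontal axis) in the 6 Casparian strip genes and 10 other lists, with list medians as vertical bars and genes with an adjusted p below 0.05 in red. The Casparian strip genes have a median of 0.22 and no red point, and the suberin, monolignol and stele medians lie between -0.017 and 0.030.

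Some markers of other root tissues and of the shoot passed the test, and their part in the ratios of the Casparian strip genes was not tested. Among 9 root hair and epidermis genes, 8 had a fitted ratio above 0 (median 0.31), beside 49.0% of all tested genes. PRP3, a root hair wall protein gene, rose 1.36-fold (adjusted p = 0.0295 in limma). RHD6 was at -0.23 (adjusted p = 0.0936), below 0 on all 4 arrays. Array 4 gave 1.13 for SHV2 (COBL9) and 1.35 for LRX1, against at most 0.48 and 0.22 on arrays 1 to 3. Of the 9, 6 were called higher without array 4 and 1, RHD6, lower, beside 16.8% and 14.3% of all tested genes. In the exposed channels the list summed to 6935 to 7652 net units on arrays 1 to 3 and 22111 units on array 4. In the control channels these 9 genes summed to 4583 to 5710 units and 8462 units. Their share of the total over tested genes was the higher in the exposed channel on 3 of 4 arrays, and on array 3 it was 0.00778% in the exposed channel against 0.00786% in the control channel. Of 6 whole-root genes, PYK10, a root beta-glucosidase gene, rose 1.52-fold (adjusted p = 0.0164), with other probes between -0.039 and 0.69 and a list median of 0.14. The summed signal of that list was 0.287% to 0.372% of the total over tested genes in the exposed channels, against 0.187% to 0.219% in the control channels. For the Casparian strip genes this share was 0.0154% to 0.0166% in the exposed channels, against 0.0145% to 0.0157% in the control channels, and the exposed share was the higher on 4 of 4 arrays. CASP1 and ESB1 dominate that sum, with 7144 and 3817 of 14976 units in the exposed channel of array 1. All these shares use signals before dye normalization. Stele genes had 0 of 16 called (median -0.0042), led by LAC11 at 0.25 (adjusted p = 0.0998), IRX12 (LAC4) at 0.21 (0.105) and SUC2 at -0.12 (0.243). Their share was 0.0347% to 0.0392% in the exposed channels, against 0.0388% to 0.0411% in the control channels, and the exposed share was the higher on 0 of 4 arrays. For the endodermal identity and suberin lists the exposed share was also the higher on 0 of 4 arrays. It was the higher on 1 of 4 for the partner and monolignol lists, and on 4 of 4 for the CASP-like family.

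Root tip genes had 0 of 6 called (median 0.13, and -0.011 without array 4), led by NAC015 at 0.18 (adjusted p = 0.252), NAC070 at 0.18 (0.304) and WOX5 at 0.18 (0.390). Their summed signal on arrays 1 to 3 was low, at 344 to 415 units in the exposed channels, against 355 to 418 units in the control channels. On each of these arrays the exposed sum was the lower. Array 4 alone gave 5292 units against 1716 units, and the exposed share was the higher on 1 of 4 arrays. Of 13 shoot genes, 5 rose and 1 fell, beside 3.40% of all tested genes called in either direction. The list median was 0.23. That median depended on the choice of probe: averaging all probes per gene gave -0.017, and the software ratio gave 0.039. Every listed marker of these tissues passed the filter on dim probes. The photosynthesis genes CAB1 (0.50), RBCS1A (0.49), RBCS2B (0.55), PSBO1 (0.49, fitted on 3 arrays because its spot on array 1 was an outlier) and CA1 (0.35) passed the test as higher, and AS1, a leaf development regulator, fell (-0.49). RCA, the gene of Rubisco activase, was at -0.29 (adjusted p = 0.0791), below 0 on all 4 arrays, with its other probes between -0.48 and -0.17. LHCA1, a light-harvesting gene, was at 0.087 (adjusted p = 0.521). The photosynthesis genes are read by several probes that disagree, with other probes of CAB1 between -0.18 and 0.68 and of CA1 between -0.44 and 0.056. Before dye normalization, the list made up 1.64% to 2.07% of the summed signal in the exposed channels, against 1.14% to 1.43% in the control channels. Shoot genes called without array 4 were 6 higher and 2 lower, beside 16.8% and 14.3% of all tested genes. Stele, root tip and whole-root genes then had 2, 2 and 3 called higher and 0 lower.

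The 5 tested genes closest to the median profile of the 6 genes over the 4 arrays were AT2G31110, AT2G42390, AT2G35290, AT4G31010 and AT1G05250. Their root-mean-square distance from that profile was 0.016 to 0.028 on the log2 scale. All 5 had fitted log2 ratios of 0.17 to 0.19 and adjusted p between 0.167 and 0.193 in limma, so none was called either.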

How the data were processed

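The 4 samples are 4 two-colour Agilent arrays of 45220 spots, 43803 of them gene spots. Per the file headers, the deposited values are linear intensity for each spot and its local background, made with Agilent Feature Extraction 11.5.1.1 (8.5.1.1 per the submitters' processing notes). The software's deposited log10 ratio of Cy5 over Cy3, corrected for background and dye per the file headers, was converted to log2 for an alternative fit. The matrix table was left out, since its columns for arrays 2 to 4 do not follow the formula that the labels state.

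In R 4.3.3 with limma 3.58.1, median spot signals (no mean signal column was found in the files) were corrected by normexp (offset 50) and normalized within arrays by loess, with control and outlier spots at weight 0. Outlier gene spots numbered 13 to 142 an array and were left out, none of them a spot of the 6 genes. A probe was tested when 1 channel had it well above background on 3 or more arrays. A gene was its brightest tested probe, and all 6 Casparian strip genes passed. The log2 ratio was tested against 0 with lmFit and eBayes, two-sided, with Benjamini-Hochberg adjustment over 22690 genes and a threshold of 0.05. The fit was tested on simulated data.

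The 6 genes and the lists were chosen with earlier results of these data known. Named list genes were those called (at most 6) or otherwise the 3 with the lowest p. Further partner and shoot genes were added after their values were seen. Names come from a RefSeq gene table of TAIR10.1, which held 22447 of the tested loci. The array headers name another build, so no coordinates are given. Alternatives covered background, normalization, filter, probe choice, array weights, arrays left out, arrays 1 to 3 as 1 sample and the slide. 1 further gene is not reported here. The number of arrays limits the precision.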

Additional observations from a re-analysis of the deposited data

Results flagged for a closer look

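Among 17 quantities over the 4 arrays (the 6 genes, their median and 10 list medians), 5 had 1 array far from the other arrays (gap over range, above Dixon's critical value for 4 samples). Chance gives about 1 in 20 such gaps for independent quantities. CASP5 was at -0.68 on array 4, against 0.13 to 0.18 on arrays 1 to 3. MYB36 was at 0.17 on array 3, against -0.068 to -0.043 on the other arrays, while its second probe read 0.081 there. On array 4 the median of the suberin list was -0.24, that of the root hair and epidermis list 0.059 and that of the CASP-like family -0.029, each the lowest of the 4 arrays. What sets these arrays apart was not tested.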

How the results depend on the processing

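CASP1, CASP2, CASP4 and ESB1 kept a ratio above 0 under all 16 alternatives tried, and the median of the 6 genes stayed between 0.13 and 0.25. CASP5, at -0.056 in the fit reported, ranged from -0.27 (within slide 2, and -0.26 with arrays 1 to 3 averaged) to 0.16. It was at 0.047 with median centring, 0.14 with array weights, 0.16 within slide 1 and between -0.14 and 0.15 with 1 array left out. MYB36 ranged from -0.11 (the scanner software's log ratio) to 0.049, and was at -0.044 with the mean of its probes, 0.0045 without background correction, 0.048 with median centring, 0.049 within slide 2 and between -0.055 and 0.023 with 1 array left out. The 0 of 6 called genes became 1 by the scanner software's log ratio, 4 with array weights, 5 within slide 1 and 0 to 4 with 1 array left out, the 4 being without array 4.

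The 772 called of all genes (358 higher, 414 lower) became 1172 with plain background subtraction (672 higher, 500 lower), 216 with median centring (166 higher, 50 lower), 292 with no filter on dim probes, 8031 with array weights, 7946 within slide 1 and 0 within slide 2. With 1 array left out the count was 0 to 7054, 7054 being without array 4. Leaving out array 1, 2 or 3 gave 0 calls in limma, where 3580, 3873 and 3494 genes had unadjusted p below 0.05. Averaging arrays 1 to 3 also left 0. The cause was not tested. Within-slide fits were chosen after the data were seen. Slide as a random block left 0 of the 6 called (lowest adjusted p = 0.0627). Among the 6 genes, CASP4 and CASP5 had the widest intervals over the 4 arrays, while their SDs over arrays 1 to 3 were 0.093 and 0.029. The ratio within an array already sets exposed against control RNA, so no further block by array was fitted.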
